A study of Homo sapiens with 12 samples.

Results

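The 10 genes ATF3, ATF4, ATF5, DDIT3 (CHOP), TRIB3, CHAC1, ASNS, SESN2, DDIT4 and PPP1R15A were chosen by name, as regulators and targets of the ATF4-CHOP arm of the integrated stress response. All 10 were found among the 20771 genes of the count table, and all 10 were among the 16515 genes that had enough counts to be tested. RNA was measured in the Ewing sarcoma lines EW8-RRM1-KO and TC71-RRM1-KO. In both, endogenous RRM1, the large subunit of ribonucleotide reductase, was knocked out with CRISPR/Cas9, and the knockout lines were single-cell cloned. Every library, the 0 h libraries included, carried this knockout together with a doxycycline-inducible, Cas9-resistant RRM1 transgene in medium with 10% serum. The 3 libraries labelled 0 h in each line came from cells with doxycycline, and the 3 labelled 48 h came from cells without it for 48 h, so loss of RRM1 and withdrawal of the drug itself cannot be told apart. No source used here says that the 3 libraries of a group were separate cultures, so p-values measure only the spread between these samples, which may be technical.

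In the integrated stress response, kinases that sense endoplasmic reticulum stress, amino acid shortage, double-stranded RNA or mitochondrial damage phosphorylate eIF2alpha, which slows general translation. The mRNA of ATF4, with its upstream open reading frames, is then translated more, so that the activity of ATF4 is set largely at the level of its protein, which RNA counts do not measure. ATF4 is known to turn on genes of amino acid supply and tRNA charging together with DDIT3, which encodes the transcription factor CHOP, and CHOP is known to turn on PPP1R15A, which restores translation.

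In both lines the RNA of ATF3 and DDIT3 was many-fold higher at 48 h, while the RNA of ATF4 and of ASNS, a canonical ATF4 target, was lower. PPP1R15A, DDIT4, SESN2 and CHAC1 rose by intermediate amounts, and TRIB3 and ATF5 rose least. The response of each of the 10 genes was more positive in EW8 than in TC71, with ATF4 and ASNS falling less.

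Depth was 18468485 to 35698991 counts per library. RRM1 itself was at 9.52 CPM (counts scaled to a common library size) at 0 h and 70.2 at 48 h in EW8, and at 16.2 and 25.4 in TC71. Whether reads of the recoded transgene are among these counts is not known, so they do not check the labels. The 10 markers of Ewing sarcoma cells were counted in every library, the lowest being CCK with 7 counts, whereas of 15 markers of other cell types PTPRC, CDH5 and MLANA had at most 6 counts in any library and the other 10 were not analysed here. Marker CPM were scaled by total counts alone, unlike the values of RRM1 and of the members. EPCAM and PMEL, the other 2 measured, were low but moved with time. EPCAM went from 0.132 to 0.336 CPM in EW8 and from 0.95 to 1.54 in TC71, and PMEL from 1.31 to 3.28 and from 2.27 to 4.04. Their part in the results was not tested. The share of counts from mitochondrial genes was 3.80% to 4.09% in the EW8 0 h libraries and 3.05% to 3.54% at 48 h, and 4.20% to 5.11% and 2.68% to 3.99% in TC71. This share was lower in every 48 h library than in every 0 h library of its line, and its part in the results was not tested. The 2.68% belongs to TC71 48 h replicate 3 alone, against 3.97% and 3.99% in the other libraries of that group. The same library stood apart in its counts, with a chi-square per gene of 7.83 and 9.48 against each of them and 5.12 between them. Without it, the count of members that rose in TC71 was 7 in place of 8 (TRIB3 did not pass), and ATF3 and DDIT3 were at 3.28 and 2.68 on the log2 scale in place of 3.37 and 2.72.

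The promoters of the members are shown because ATF3 and DDIT3 rose while ATF4 and ASNS, genes of the same pathway, fell. All 10 members had at least 1 RefSeq promoter window (GRCh38.p14, 250 bases before to 50 after the transcription start), 18 windows in all. Both strands were searched for TGATGNAA, the C/EBP-ATF response element that ATF4 and CHOP are known to bind with C/EBP partners, for TGACGTNA, the cAMP response element, and for TGANTCA, the AP-1 element. These motifs were present in 3.62%, 3.01% and 7.71% of all 35116 windows, respectively. The stretches below read 5′ to 3′ on the strand of the gene, with the motif in capitals and up to 11 bases on each side.
ATF3, C/EBP-ATF response element starting 191 bases before the start, chr1:212565205-212565234, plus strand: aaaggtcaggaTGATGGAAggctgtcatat
ASNS, C/EBP-ATF response element 68 bases before the start, chr7:97872458-97872487, minus strand: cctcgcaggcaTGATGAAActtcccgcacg
CHAC1, C/EBP-ATF response element in reverse orientation 209 bases before the start, chr15:40953251-40953280, plus strand: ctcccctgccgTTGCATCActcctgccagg
PPP1R15A, cAMP response element 58 bases before the start, chr19:48872352-48872381, plus strand: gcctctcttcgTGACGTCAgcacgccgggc
DDIT3, AP-1 element 238 bases before the start, chr12:57520738-57520766, minus strand: gcgcgcgcgcaTGACTCAcccacctcctc
ATF5, AP-1 element 188 bases before the start, chr19:49928707-49928735, plus strand: ggagagtgctgTGACTCAtgctggactct
ATF3, which rose, and ASNS, which fell, thus each held a match to the same C/EBP-ATF response element. Of the 18 member windows, 3 held this element. That of ATF3 was the window chr1:212565157-212565456, at the upstream end of the annotated gene. Which transcription start was in use in these cells was not tested. The stretch of ATF3 lies outside annotated exons, that of DDIT3 overlaps them by 6 bases, and those of ASNS, CHAC1, PPP1R15A and ATF5 lie within them. A match describes letters in this window and does not show binding.

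ATF3, a stress-induced bZIP repressor and activator on chromosome 1 (212565334 to 212620777, plus strand; hg38, as are all gene positions here), was counted 150, 134 and 186 times in the EW8 0 h libraries and 3563, 3829 and 3970 times at 48 h. In TC71 its counts were 114, 76 and 76 at 0 h and 856, 1069 and 1388 at 48 h. The time points did not overlap in either line, and every EW8 library at 48 h was above every TC71 library. In RNA of whole cultures, a higher level in all cells and a high level in some of them cannot be told apart, for this gene and for the others. After scaling by library size with TMM factors, ATF3 was at 6.64 ± 1.0 CPM (SD, n = 3) at 0 h and 192 ± 2.43 at 48 h in EW8, a log2 fold change of 4.89 ± 0.10 (SE; edgeR quasi-likelihood test, adjusted p = 2.57e-18), or 29.6-fold. In TC71 it went from 3.71 ± 0.551 to 38.5 ± 5.26 CPM, a log2 fold change of 3.37 ± 0.12 (edgeR, adjusted p = 1.30e-13), or 10.4-fold. Ordered by log2 fold change among all 16515 genes, ATF3 stood at place 59 in EW8 and at place 37 in TC71.

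DDIT3, which encodes CHOP and lies on chromosome 12 (57516588 to 57521737, minus strand), was counted 111, 102 and 144 times at 0 h and 3255, 3563 and 3741 times at 48 h in EW8. The TC71 counts were 123, 111 and 100 at 0 h and 722, 875 and 1046 at 48 h. At 0 h the lines overlapped, and at 48 h they were far apart. The level rose from 5.03 ± 0.740 to 178 ± 5.02 CPM (SD, n = 3) in EW8, a log2 fold change of 5.18 ± 0.08 (edgeR, adjusted p = 4.33e-31), or 36.3-fold. In TC71 it rose from 4.72 ± 0.664 to 30.8 ± 2.85 CPM, a log2 fold change of 2.72 ± 0.09 (edgeR, adjusted p = 1.49e-21), or 6.59-fold. DDIT3 shares 355 exon bases with MARS1 on the other strand, and whether counting used the strand of the reads is not given in the sources used here. MARS1, the methionyl-tRNA synthetase, had log2 fold changes of -0.41 in EW8 and -0.56 in TC71, the opposite sign to DDIT3. MBD6, a methyl-CpG-binding domain protein gene that shares 58 exon bases with DDIT3 on the other strand, was at 0.82 in EW8 (97.2 ± 10.0 to 171 ± 7.80 CPM), the same sign as DDIT3, and at -0.02 in TC71. A gene on the same strand (ENSG00000285133) shares 105 exon bases with DDIT3, and its counts were not analysed here. The part of these overlaps in the counts of DDIT3 was not tested.

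ATF4, the transcription factor at the centre of the pathway, lies on chromosome 22 (39519695 to 39522683, plus strand) and was the most abundant of the 10 in every group. Its level in EW8 was 629, 644 and 634 CPM at 0 h and 535, 523 and 522 at 48 h, and in TC71 411, 408 and 402 at 0 h and 305, 294 and 314 at 48 h. All 48 h libraries were below all 0 h libraries of their line. By log2 fold change among all 16515 genes, ATF4 stood at place 11471 in EW8 and at place 15100 in TC71. ATF4 fell by 0.27 ± 0.03 (SE) on the log2 scale in EW8 (edgeR, adjusted p = 1.91e-08), which is 1.21-fold lower, and by 0.42 ± 0.04 in TC71 (edgeR, adjusted p = 9.25e-12), which is 1.34-fold lower. Scaling by total counts alone moved the EW8 value to -0.15, with the fall still passing the test. The processed pseudogenes ATF4P3 and ATF4P4 had at most 53 counts in any library, against at least 7872 for ATF4. Their log2 fold changes were 0.08 and -0.39 in EW8 and -1.02 and -0.86 in TC71, and exchange of reads between them and ATF4 was not tested.

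ASNS, asparagine synthetase, lies on chromosome 7 (97851677 to 97872542, minus strand). It was at 206, 212 and 206 CPM in EW8 at 0 h and at 140, 144 and 142 at 48 h. In TC71 it was at 135, 126 and 132 CPM at 0 h and at 59.4, 66.1 and 60.2 at 48 h. The time points were well separated in both lines. ASNS fell by 0.55 ± 0.04 on the log2 scale in EW8 (edgeR, adjusted p = 2.27e-13) and by 1.08 ± 0.05 in TC71 (edgeR, adjusted p = 1.37e-19). In TC71 this was 2.12-fold lower, which made ASNS the single member past the 2-fold threshold for downregulation, at place 16382 of 16515 by log2 fold change. In EW8 ASNS stood at place 13977. An annotated readthrough gene on the same strand (ENSG00000284707) shares 2415 exon bases with ASNS, and its counts were not analysed here.

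PPP1R15A (GADD34), the stress-induced subunit that directs protein phosphatase 1 to eIF2alpha, lies on chromosome 19 (48872212 to 48876059, plus strand). It was counted 243, 203 and 334 times at 0 h and 2560, 2721 and 2786 times at 48 h in EW8. In TC71 the counts were 376, 273 and 318 at 0 h and 1119, 1154 and 1648 at 48 h. Its increase in both lines was the largest of the 10 after those of ATF3 and DDIT3. The increase was 12.7-fold in EW8 (log2 3.67 ± 0.07 SE; edgeR, adjusted p = 1.30e-30) and 3.38-fold in TC71 (log2 1.75 ± 0.07; edgeR, adjusted p = 1.38e-20).

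DDIT4 (REDD1) and SESN2 (sestrin 2), stress-induced inhibitors of mTORC1 signalling on chromosomes 10 (72273919 to 72276036, plus strand) and 1 (28259518 to 28282491, plus strand), rose in both lines. DDIT4 was at 4.34, 5.33 and 4.21 CPM in EW8 at 0 h and 32.2, 30.5 and 28.4 at 48 h, and at 6.70, 7.11 and 7.41 and then 16.9, 13.2 and 17.1 in TC71. SESN2 was at 17.2, 19.4 and 14.6 CPM in EW8 at 0 h and 90.4, 95.4 and 85.6 at 48 h, and at 13.9, 14.5 and 15.1 and then 28.7, 29.8 and 31.7 in TC71. Neither gene's time points overlapped within a line. The increase of DDIT4 was 6.68-fold in EW8 and 2.23-fold in TC71 (edgeR, adjusted p = 5.63e-22 and 1.80e-11). For SESN2 it was 5.38-fold and 2.08-fold (edgeR, adjusted p = 1.51e-24 and 4.04e-13).

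CHAC1, a glutathione-degrading enzyme that is a target of ATF4, lies on chromosome 15 (40952962 to 40956512, plus strand). It was at 9.33, 12 and 9.3 CPM in EW8 at 0 h and 45.5, 46.0 and 43.5 at 48 h, and at 9.16, 8.68 and 7.45 and then 14.4, 12.3 and 14.6 in TC71. The increase was 4.47-fold in EW8 and 1.64-fold in TC71 (edgeR, adjusted p = 2.21e-21 and 2.52e-07), without overlap of the time points.

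TRIB3, a pseudokinase that is induced by ATF4 and CHOP and is known to restrain them, lies on chromosome 20 (362835 to 397559, plus strand). It was at 45.0, 53.6 and 46.9 CPM in EW8 at 0 h and 119, 115 and 112 at 48 h, a 2.39-fold increase (edgeR, adjusted p = 6.86e-20). In TC71 it was at 32.9, 31.9 and 28.7 CPM at 0 h and 35.8, 33.9 and 35.7 at 48 h. The TC71 time points thus came within about 1 CPM of each other, and the log2 fold change of 0.17 ± 0.06 (edgeR, adjusted p = 0.0233) did not pass the test without TC71 0 h replicate 3 (adjusted p = 0.179), TC71 48 h replicate 1 (0.0597) or TC71 48 h replicate 3 (0.0720).

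ATF5, a bZIP factor related to ATF4 and likewise controlled in translation, lies on chromosome 19 (49928702 to 49933935, plus strand). It was at 83.3, 92.2 and 89.5 CPM in EW8 at 0 h and 134, 134 and 131 at 48 h, a 1.51-fold increase (edgeR, adjusted p = 6.98e-13). In TC71 it was at 69.8, 76.5 and 67.4 CPM and then at 82.1, 78.6 and 84.2, a 1.15-fold increase (edgeR, adjusted p = 0.00149). ATF5 shares 565 exon bases with NUP62 on the other strand, which was at -0.46 in EW8 and -0.02 in TC71 on the log2 scale.

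**Figure D1:**
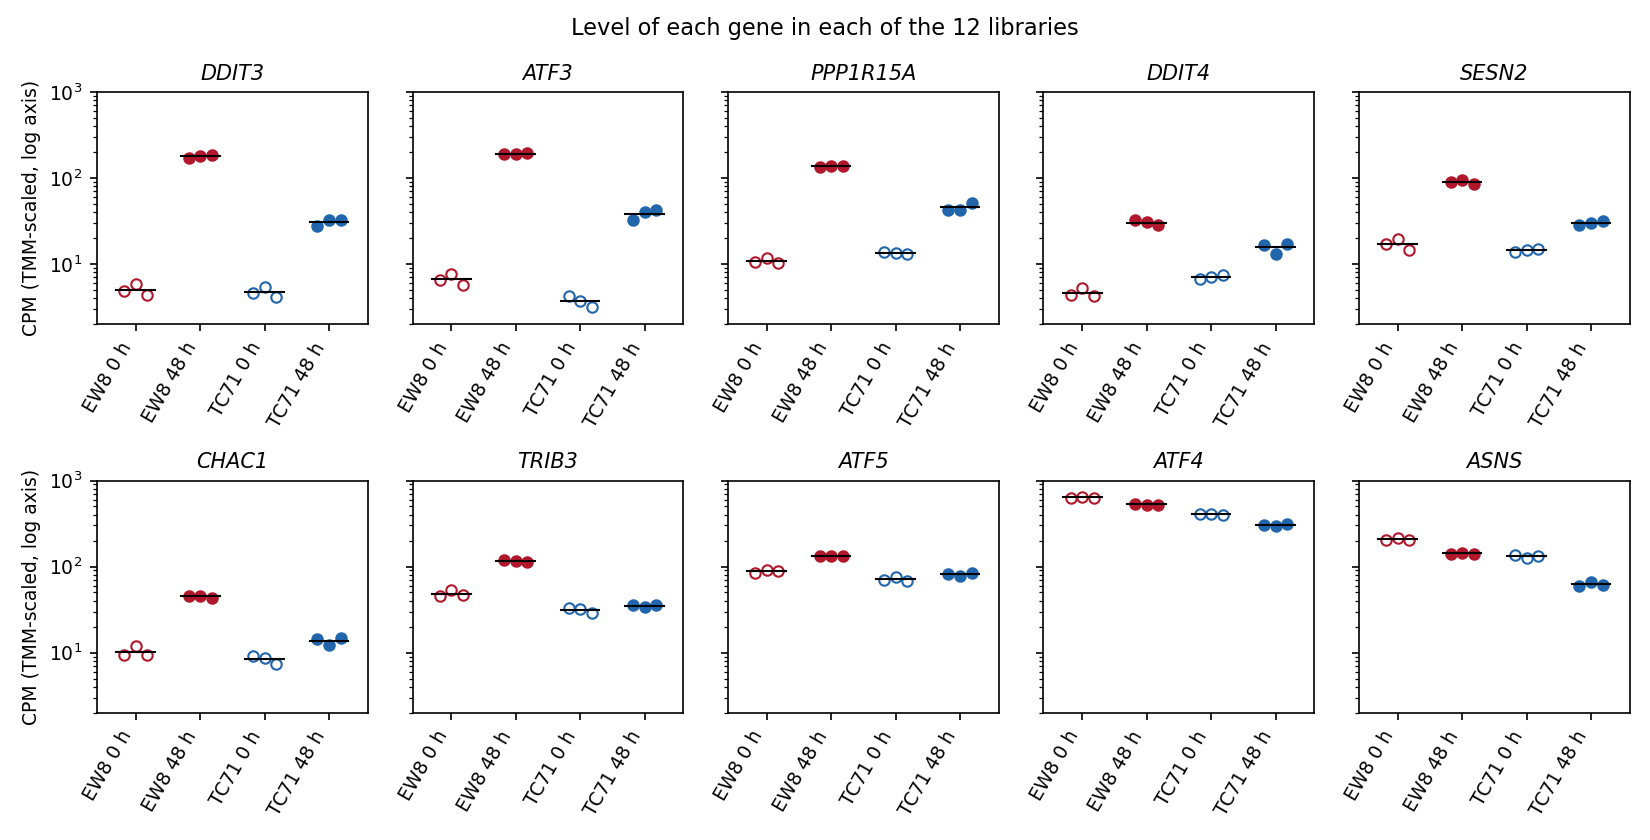
Level of each of the 10 genes in each library, in TMM-scaled CPM on a log axis. Open points are 0 h libraries, filled points are 48 h libraries, red is EW8, blue is TC71 and black lines are group means (n = 3); ATF3 and DDIT3 start below 10 CPM and in EW8 end near 192 and 178 CPM, while ATF4 and ASNS end lower than they began.

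Counted over the 10 genes, 8 rose and 2 fell in each line (adjusted p below 0.05). In EW8, 37.0% of all genes tested rose and 31.6% fell. In TC71 the shares were 22.9% and 19.2%. With a fold above 2 also required, 7 members were upregulated in EW8, against 13.9% of all genes, and none was downregulated, against 3.35%. The count of 0 follows from size, since ATF4 and ASNS, the members that fell, did so by less than 2-fold, and it would be 0 at an unadjusted p below 0.05 too. It was also 0 by DESeq2. In TC71, 5 members were upregulated, against 3.26% of all genes, and 1 was downregulated, against 0.854%. The median log2 fold change of the members was 2.30 in EW8 and 0.89 in TC71, beside 0.03 and 0.00 for all genes tested. Scaling by total counts alone moved the balance of all genes toward increases, with 7207 rising and 4031 falling in EW8 in place of 6103 and 5226, and 4631 and 2345 in TC71 in place of 3776 and 3179, but gave the same counts of members. Upregulated and downregulated genes then numbered 2661 and 345 in EW8 in place of 2294 and 554. In TC71 they numbered 603 and 109 in place of 539 and 141.

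**Figure D2:**
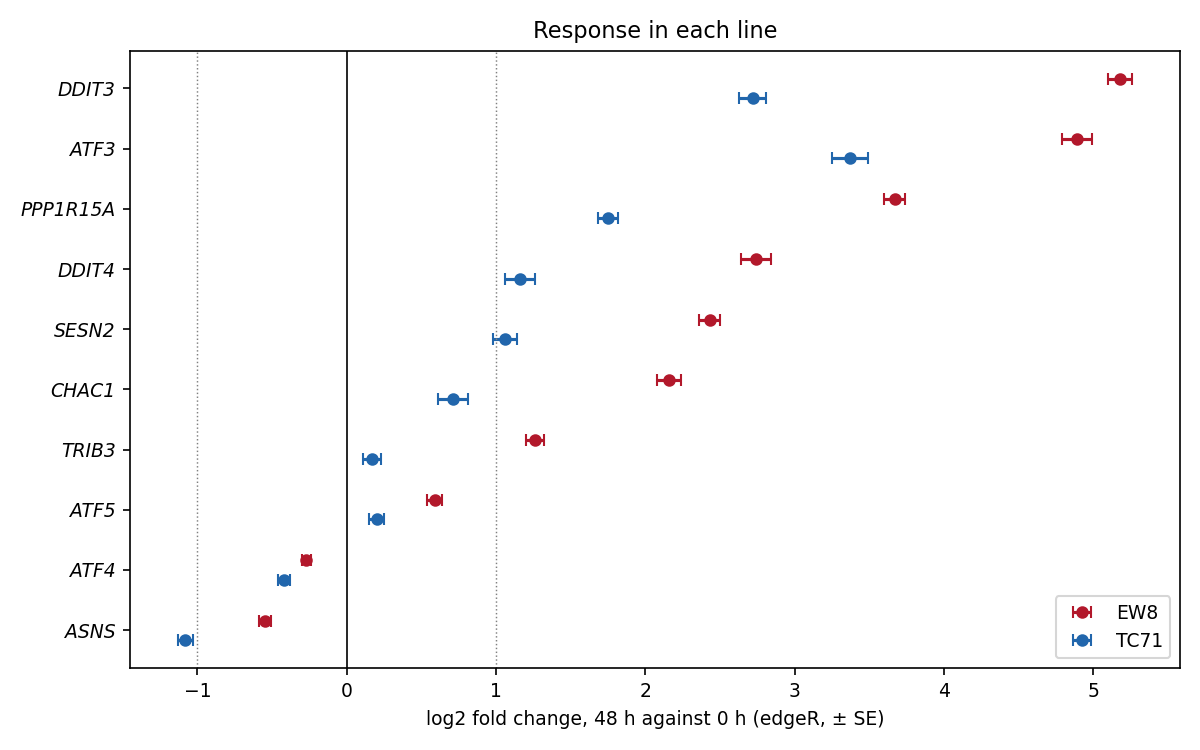
Log2 fold change at 48 h against 0 h of each gene in EW8 (red) and TC71 (blue), with the standard error of the edgeR fit as horizontal bars and dotted lines at a 2-fold change. Points run from 5.18 for DDIT3 in EW8 to -1.08 for ASNS in TC71, and the red point lies to the right of the blue one for every gene.

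Within a library, the ratio of the counts of 2 genes does not depend on library size or on scaling. The log2 ratio of ATF3 to ATF4 counts was -6.58, -6.39 and -6.80 in the EW8 0 h libraries and -1.5, -1.44 and -1.43 at 48 h. In TC71 it was -6.59, -6.77 and -6.99 at 0 h and -3.22, -2.88 and -2.87 at 48 h. The ratio thus overlapped between the lines at 0 h and was higher in every EW8 library than in every TC71 library at 48 h. On the log2 scale, the mean ratio of ATF3 to ATF4 went up by 5.13 in EW8 and 3.79 in TC71, and that of DDIT3 to ATF4 went up by 5.42 and 3.13. Against ASNS, the ratio of ATF3 went up by 5.41 and 4.45 and that of DDIT3 by 5.70 and 3.79. The gains were smallest against PPP1R15A, at 1.20 and 1.62 for ATF3 and 1.5 and 0.96 for DDIT3.

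The ratio of ATF3 to DDIT3 changed by less in each line than the ratio of either gene to any of the other 8. The log2 ratio of ATF3 to DDIT3 was 0.43, 0.39 and 0.37 in EW8 at 0 h and 0.13, 0.10 and 0.09 at 48 h, a change of -0.29. In TC71 it was -0.11, -0.54 and -0.39 at 0 h and had a mean of 0.31 at 48 h, a change of 0.66 in the other direction. These ratios are given as a description, with no test.

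**Figure D3:**
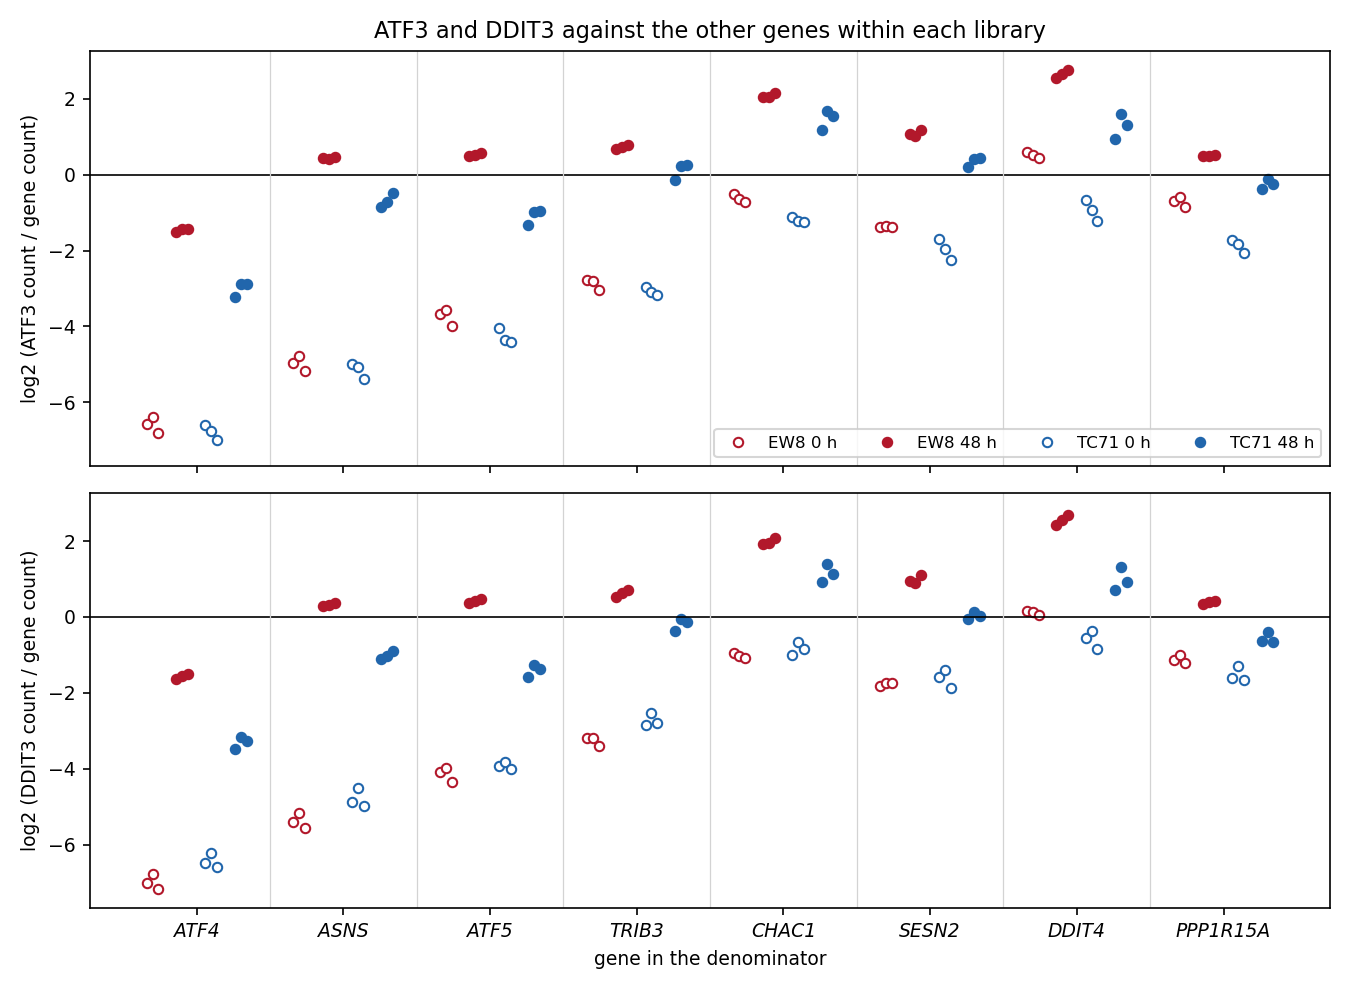
Log2 ratio of ATF3 counts (upper panel) and of DDIT3 counts (lower panel) to those of each of the other 8 genes within each library, with 1 point per library. The ratio of ATF3 to DDIT3 is not drawn. Open points are 0 h, filled points 48 h, red EW8 and blue TC71; the filled points lie above the open ones of the same line for all 8 denominators, by 5.13 in EW8 for ATF3 over ATF4 and by 0.96 in TC71 for DDIT3 over PPP1R15A.

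Compared per kilobase of annotated exon, ATF4 was the most abundant member in each group, and ATF3 was the least abundant at 0 h in both lines. In EW8, DDIT3 was at 3.85 ± 0.566 CPM per kb at 0 h, at place 7 of 10 and overlapping PPP1R15A (3.15) and SESN2 (4.94), and at 136 ± 3.84 at 48 h, at place 2 below ATF4 (201 ± 2.80). ATF3 moved from 1.66 ± 0.251 CPM per kb at place 10 to 48.0 ± 0.608 at place 3 in the same line, just above ATF5 (46.0 ± 0.532), with no overlap of their libraries. In TC71 at 48 h the order was ATF4 (116 ± 3.89), ATF5 (28.2 ± 0.970) and DDIT3 (23.6 ± 2.18 CPM per kb). ATF3 was at place 7 there with 9.63 ± 1.32 CPM per kb and overlapped its neighbours TRIB3 (10.7) and SESN2 (8.69). ASNS was at place 2 at 0 h in both lines, overlapping ATF5 in TC71 (26.7 against 24.6 CPM per kb) but not in EW8. At 48 h it was at place 7 in EW8 and at place 5 in TC71, where it overlapped PPP1R15A (12.6 against 13.3).

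The difference between the responses of the lines was tested as an interaction in the same edgeR fit. All 10 members had a more positive response in EW8, against 25.7% of all genes, and none a more positive one in TC71, against 22.4%. Under scaling by total counts these numbers over all genes were 5018 and 2941 in place of 4243 and 3697. For DDIT3 the log2 difference was 2.46 ± 0.14 (SE; edgeR, adjusted p = 2.92e-15), and for PPP1R15A it was 1.91 ± 0.10 (adjusted p = 7.80e-17). It was 1.52 ± 0.19 for ATF3 (adjusted p = 2.44e-06), and 1.58, 1.45, 1.37 and 1.08 for DDIT4, CHAC1, SESN2 and TRIB3. For ASNS, whose fall was smaller in EW8, the difference was 0.53 ± 0.06 (adjusted p = 1.49e-08), and for ATF5 it was 0.39 ± 0.07. The difference for ATF4 was 0.15 ± 0.05 (adjusted p = 0.0134), and it did not pass without EW8 0 h replicate 1 (adjusted p = 0.0716) or TC71 48 h replicate 2 (0.0587). With the replicate number added to the fit as a block, the ATF4 difference also did not pass (edgeR, adjusted p = 0.0688). The median over the members was 1.41, beside 0.04 for all genes.

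Before doxycycline was removed, the lines already differed. At 0 h, 7 members were higher in EW8, against 32.8% of all genes, and 2 were lower, against 32.9%. Scaling by total counts turned the split of all genes from 5415 higher and 5439 lower to 3910 and 6940, and the number of members that differed from 9 to 7. ATF4 was 1.56-fold higher in EW8 (636 ± 7.57 CPM against 407 ± 4.52; edgeR, adjusted p = 1.42e-17). ASNS was 1.59-fold higher, TRIB3 1.55-fold, ATF3 1.74-fold and ATF5 1.24-fold. DDIT4 and PPP1R15A were lower in EW8, by 1.56-fold and 1.26-fold (edgeR, adjusted p = 3.33e-05 and 6.54e-04). For DDIT3 the log2 difference of 0.07 ± 0.13 did not pass the test (adjusted p = 0.654). CHAC1 and SESN2 passed at 0.25 and 0.22 on the log2 scale (adjusted p = 0.0312 and 0.0224), but neither passed when total counts set the scale (0.12 and 0.08; adjusted p = 0.336 and 0.403). CHAC1 also did not pass when each library had to hold 10 counts or more (0.0583), without EW8 0 h replicate 2 (0.203) or TC71 0 h replicate 3 (0.184), and SESN2 did not pass without EW8 0 h replicate 1 (0.0528), EW8 0 h replicate 2 (0.142), TC71 0 h replicate 1 (0.0910) or TC71 0 h replicate 2 (0.0539).

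The other genes of the pathway were described by 8 lists ordered by role, which share members in places. The counts below are to be read beside all genes tested, of which 37.0% rose and 31.6% fell in the EW8 line and 22.9% and 19.2% did so in TC71. Upstream, of 8 eIF2alpha kinases, their regulators and mitochondrial stress sensors, 2 rose in EW8 (25.0%) and 6 fell (75.0%), with 1 (12.5%) and 4 (50%) in TC71. EIF2AK3, which encodes the endoplasmic reticulum kinase PERK, rose from 13.1 ± 1.15 to 40.3 ± 3.01 CPM in EW8 (log2 1.61) and from 14.2 ± 1.29 to 23.6 ± 0.295 in TC71 (log2 0.73). EIF2AK4, which encodes the amino acid sensor GCN2, fell by 0.51 and 0.22 on the log2 scale. EIF2AK1, the heme-regulated kinase HRI that also relays mitochondrial stress, fell by 0.48 in EW8 and was at -0.01 in TC71, where it did not pass. OMA1, the mitochondrial protease upstream of HRI, fell by 1.28 and 0.45, and DELE1, which carries the signal from OMA1 to HRI, rose by 0.21 in EW8 and was at -0.02 in TC71, where it did not pass, a difference of 0.23 (edgeR, adjusted p = 0.00580).

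The next list held 15 genes of eIF2, EIF2A, the exchange factor eIF2B, the phosphatases of eIF2 and linked regulators such as DNAJC3. Of these, 4 rose in EW8 (26.7%) and 7 fell (46.7%), with 3 (20%) and 7 (46.7%) in TC71. DNAJC3, which encodes the PERK inhibitor p58IPK, rose by 1.34 ± 0.04 (SE) on the log2 scale in EW8 and by 0.31 ± 0.04 in TC71. EIF2B2, an eIF2B subunit, rose by 0.86 and 0.39 on the log2 scale. PPP1R15B, the constitutive counterpart of PPP1R15A, had log2 fold changes of 0.24 in EW8 and 0.12 in TC71, where its call (adjusted p = 0.0243) was lost without TC71 0 h replicate 2 (0.151) and without some of the other libraries. PPP1CC, a catalytic subunit that PPP1R15A recruits, fell by 0.91 and 0.50, and EIF2S3, the gamma subunit of eIF2, fell by 0.68 and 0.32. EIF2A, a separate initiation factor that is not a subunit of eIF2, fell by 0.93 and 0.35. EIF2S1, which encodes eIF2alpha itself, was at -0.05 in each line and did not pass (edgeR, adjusted p = 0.297 and 0.341).

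Of 9 bZIP partners of ATF4, CHOP and ATF3 that were tested, 7 rose in EW8 (77.8%) and 1 fell (11.1%), with 6 (66.7%) and 1 (11.1%) in TC71. FOS and JUN, subunits of AP-1 that can pair with ATF family members, were the extreme values of this list. JUN went from 4.52 ± 0.419 to 417 ± 7.98 CPM in EW8 and from 10.5 ± 0.580 to 227 ± 26.6 in TC71, and FOS from 1.16 ± 0.141 to 92.6 ± 3.31 and from 0.900 ± 0.247 to 48.5 ± 5.20. CEBPG, a C/EBP partner of ATF4, rose by 1.32 and 0.32 on the log2 scale, and CEBPB, a C/EBP partner of CHOP, by 1.27 and 0.43. NFE2L1 was the member that fell, by 0.14 and 0.18, and it did not pass in EW8 under scaling by total counts (-0.02).

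Of 13 genes of serine, folate and other amino acid synthesis, 6 rose in EW8 (46.2%) and 7 fell (53.8%), against 1 (7.69%) and 9 (69.2%) in TC71, with median log2 fold changes of -0.15 and -0.30. CTH, the cystathionine-cleaving enzyme of cysteine synthesis, rose in both lines, from 22.6 ± 0.697 to 68.8 ± 3.52 CPM in EW8 and from 27.0 ± 0.975 to 34.0 ± 1.76 in TC71. PSPH and GPT2 rose in EW8, by 0.36 and 0.43 on the log2 scale, and were at -0.07 and 0.08 in TC71, where neither passed. PSAT1, a serine synthesis enzyme, fell by 0.67 and 0.57, and MTHFD1L, of mitochondrial folate metabolism, by 0.87 and 0.45. ALDH18A1, of proline synthesis, fell by 0.80 in EW8 and 0.30 in TC71, and ALDH1L2, a mitochondrial folate enzyme, by 0.95 in TC71 and 0.15 in EW8.

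Of 9 amino acid transporters, 3 rose in EW8 (33.3%, near the 37.0% of all genes) and 2 fell (22.2%), with 2 (22.2%, near 22.9%) and 6 (66.7%) in TC71. SLC3A2, the heavy chain of several transporters, rose from 233 ± 7.66 to 691 ± 7.88 CPM in EW8 and from 148 ± 5.11 to 207 ± 6.84 in TC71. Its light-chain partner SLC7A5 fell by 0.35 and 0.52 on the log2 scale. SLC7A11, the cystine transporter, rose by 0.25 in EW8 and fell by 0.31 in TC71, a difference of 0.56 ± 0.07 (edgeR, adjusted p = 5.49e-08). SLC1A4, which carries alanine, serine and cysteine, rose by 0.50 and 0.56, and SLC7A1, which carries cationic amino acids, fell by 0.30 and 0.27. In TC71 SLC38A1 and SLC6A9 fell by 0.65 and 0.48, and in EW8 they were at -0.09 and -0.02 and did not pass.

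Of 13 genes of tRNA charging and export, which ATF4 is known to turn on together with ASNS, 5 rose in EW8 (38.5%, near the 37.0% of all genes) and 6 fell (46.2%, against 31.6%), whereas in TC71 none rose and 12 fell (92.3%, against 19.2%). All 13 had a negative log2 fold change in TC71, so by edgeR none could be called as rising at any p, the unadjusted one included. The count was also 0 by DESeq2. WARS1, the tryptophanyl-tRNA synthetase, rose from 515 ± 7.5 to 863 ± 25.4 CPM in EW8 and fell from 391 ± 7.76 to 332 ± 8.60 in TC71, a log2 difference of 0.98 ± 0.05 (edgeR, adjusted p = 4.89e-17). AARS1, for alanine, rose by 0.42 on the log2 scale in EW8 and was at -0.09 in TC71, where it did not pass. SARS1, for serine, rose by 0.30 in EW8 and fell by 0.20 in TC71. In EW8 and TC71, respectively, MARS1 fell by 0.41 and 0.56, EPRS1 by 0.36 and 0.20, the exporter XPOT by 0.30 and 0.41, and GARS1, for glycine, by 0.15 and 0.44. YARS1, for tyrosine, fell by 0.38 in TC71 and was at -0.03 in EW8, where it did not pass.

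Of 21 other reported targets of ATF4 and CHOP, 19 rose in EW8 (90.5%) and 2 fell (9.52%), against 11 (52.4%) and 2 (9.52%) in TC71, with medians of 1.27 and 0.27. GDF15 and NUPR1 had a mean of at most 3 counts at 0 h. With both set to the change that a floor of 3 counts at 0 h gives, the medians were 1.27 and 0.30. The TC71 median of 0.27 is the value of NUPR1 itself, which did not pass (edgeR, adjusted p = 0.755). NUPR1 was counted 5, 2 and 2 times at 0 h and 5, 5 and 3 times at 48 h in TC71. GDF15, a secreted stress cytokine, was counted 0, 0 and 0 times at 0 h and 44, 36 and 51 times at 48 h in EW8, and 2, 4 and 1 and then 76, 90 and 138 times in TC71. MAP1LC3B, which encodes the autophagosome protein LC3B, rose from 33.3 ± 1.13 to 153 ± 6.15 CPM in EW8 and from 55.8 ± 4.88 to 88.8 ± 5.62 in TC71. PMAIP1 (NOXA), a pro-apoptotic BH3-only protein whose gene is also a p53 target, rose from 25.1 ± 1.04 to 78.9 ± 2.83 and from 36.7 ± 0.847 to 65.9 ± 4.64 CPM. VEGFA, an angiogenic factor, rose by 1.35 and 0.19 on the log2 scale. The members that fell were ERO1A, an endoplasmic reticulum oxidase known as a CHOP target, by 0.76 and 0.17, and EIF4EBP1, a repressor of translation, by 0.56 and 0.19. The call of EIF4EBP1 in TC71 (edgeR, adjusted p = 0.0396) was lost without TC71 0 h replicate 2 (0.112) and that of ERO1A (0.00867) without TC71 0 h replicate 3 (0.0702), each of which took the count of 2 in TC71 down to 1, as did leaving out any of 5 other libraries. Under scaling by total counts neither passed in TC71 (ERO1A 0.0559, EIF4EBP1 0.185), and the count was 0.

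Of 16 genes of endoplasmic reticulum folding and of the IRE1 and ATF6 branches, 6 rose in EW8 (37.5%, near the 37.0% of all genes) and 8 fell (50%, against 31.6%). In TC71 5 rose (31.2%, against 22.9%) and 1 fell (6.25%), and without TC71 0 h replicate 1 the number that rose was 3. XBP1, the factor that IRE1 splices, rose from 85.9 ± 3.91 to 172 ± 3.25 CPM in EW8 and from 93.2 ± 2.62 to 107 ± 3.71 in TC71. ERN1, which encodes IRE1, rose by 1.52 and 0.53 on the log2 scale, and DNAJB9, an XBP1 target, by 1.22 and 0.32. The chaperone gene HYOU1 fell by 0.80 and 0.25, and in EW8 the disulfide isomerases PDIA6 and PDIA4 fell by 0.64 and 0.50, while in TC71 they were at -0.02 and -0.07 and did not pass. The count of genes that fell in TC71 was 2 in place of 1 without EW8 0 h replicate 2 or EW8 0 h replicate 3.

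**Figure D4:**
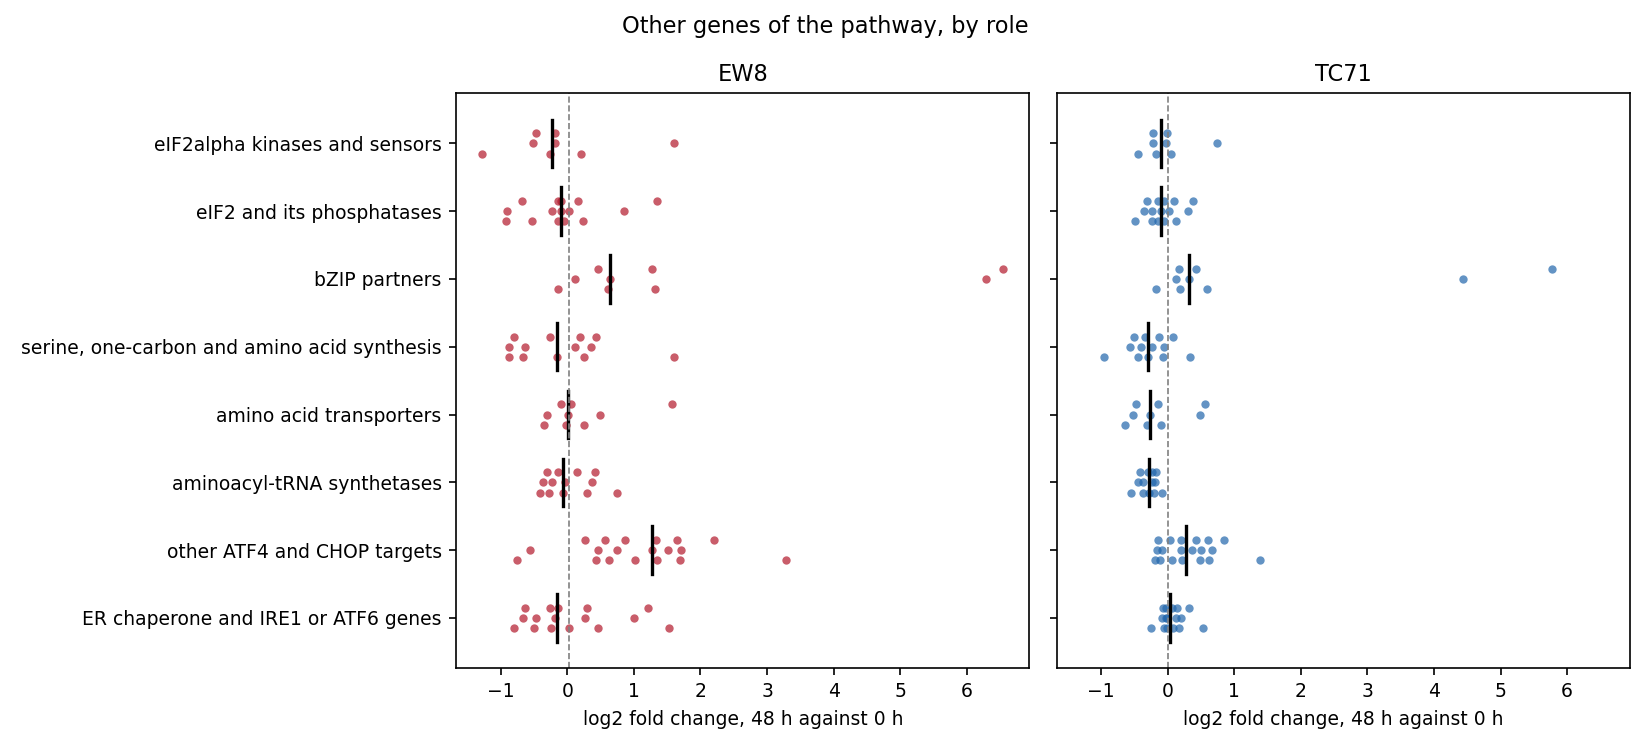
Log2 fold change at 48 h against 0 h of each gene of the 8 lists in EW8 (left) and TC71 (right), with 1 point per gene, black bars at list medians and a dashed line at the median of all genes tested. GDF15 and NUPR1, near 0 counts at 0 h, are not drawn but are in the median; the bars of the other ATF4 and CHOP targets lie at 1.27 and 0.27, and those of the aminoacyl-tRNA synthetases and XPOT at -0.06 and -0.28.

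The genes whose log2 CPM over the 12 libraries was most like that of a member were ranked among 13899 other genes by Pearson correlation, as a description. The libraries fall into 4 groups, so the values mostly reflect the group means. For ATF3 the nearest genes were TNFRSF12A (r = 0.9967), DUSP6, DNAI3, CCN1 and APCDD1. For DDIT3 they were CSRP1 (r = 0.9975), CCN1, ERRFI1, BEST1 and ZFP36L1, so that CCN1 was shared with ATF3. For ATF4 they were MARS1 (r = 0.9979), ZNF618, LPAR3, ABLIM1 and SLC7A5, of which MARS1 and SLC7A5 are on the lists of tRNA charging genes and amino acid transporters. For ASNS they were MSI2 (r = 0.9841), IARS1, L3MBTL3, BCAT1 and BPTF. Among the other members, r with DDIT3 was 0.994 for PPP1R15A, 0.992 for ATF3 and 0.985 for SESN2, but -0.087 for ATF4 and -0.294 for ASNS.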

How the data were processed

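The data were 12 RNA-seq libraries of the EW8 and TC71 RRM1-KO lines. The deposited values are raw counts per gene, which the authors made from polyA RNA (TruSeq Stranded mRNA, NovaSeq, paired-end reads) checked with FastQC and mapped to hg38 with STAR. The counting tool and annotation are not given in the sources used here. No gene had fewer than 21 counts in total, so low genes had been removed. Positions and exon lengths came from GENCODE 44, which matched 19943 of 20771 identifiers.

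Counts were fitted with edgeR 4.0.16 in R 4.3.3 (filterByExpr with minimum count 10 and minimum total 15, TMM, robust quasi-likelihood, 4 groups in 1 model), with Benjamini-Hochberg adjustment over all 16515 genes tested, and the script was tested on simulated data. Rose and fell mean an adjusted p below 0.05. Upregulated and downregulated mean a fold above 2 as well. SE is the log2 fold change divided by the square root of F. Ratios of counts had 0.5 added to each count and were not tested. Alternatives were DESeq2 1.42.0, other scaling and filters, each line fitted alone, a replicate block and leaving out each library. Those for the lists were chosen after seeing the data.

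The members and lists were chosen with earlier results of these data known. Named genes were the 10 members, up to 3 genes with the smallest p per list, line and direction among those with an adjusted p below 0.05 and a mean of at least 20 counts, the 5 nearest genes to ATF3, DDIT3, ATF4 and ASNS, and RRM1. CEBPB, EIF2S1, NUPR1, ATF4P3, ATF4P4, the marker genes and the genes that overlap members were named after their values were seen.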

Additional observations from a re-analysis of the deposited data

Results flagged for a closer look

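All 10 members were picked out because their response to removal of doxycycline differed between the lines by the interaction test of edgeR (adjusted p below 0.05), which 25.7% of all genes tested also met with a more positive response in EW8 and 22.4% with a more positive one in TC71. The log2 response in EW8 minus that in TC71 was 2.46 for DDIT3, 1.91 for PPP1R15A, 1.58 for DDIT4, 1.52 for ATF3, 1.45 for CHAC1, 1.37 for SESN2, 1.08 for TRIB3, 0.53 for ASNS, 0.39 for ATF5 and 0.15 for ATF4. For 8 of the 10 this was a larger increase in EW8, and for ASNS and ATF4 a smaller fall. For ATF4 the difference did not pass without EW8 0 h replicate 1 (adjusted p = 0.0716) or TC71 48 h replicate 2 (0.0587), and 9 members then differed between the lines. The ATF4 difference also did not pass with a replicate block (edgeR, adjusted p = 0.0688). The knockout lines were single-cell cloned, so differences between lines and between clones cannot be told apart.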

How the results depend on the processing

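The counts of members that rose, fell or were upregulated or downregulated in each line, and those that differed between the lines or at 0 h, kept within 1.5 times their value under every alternative that was run, 198 in all. Leaving out 1 library at a time is described above where it ended a call. The DDIT3 difference at 0 h, which passed under no setting, changed sign to -0.07 with scaling by total counts. It ranged from -0.02 (without EW8 0 h replicate 2) to 0.18 (without EW8 0 h replicate 3) when single libraries were left out, and was -0.01 without TC71 0 h replicate 3. Scaling by total counts moved the median over all genes, on the log2 scale, to 0.16 in EW8, 0.05 in TC71, 0.12 for the difference and -0.14 at 0 h. ATF4 was then at -0.15 in EW8, below that median. Under the same scaling, CHAC1 and SESN2 at 0 h were at 0.12 and 0.08 and did not pass, amino acid transporters that rose in EW8 numbered 5 in place of 3, eIF2 genes that fell in EW8 numbered 4 in place of 7, bZIP partners that fell in EW8 0 in place of 1, serine and folate genes that rose in TC71 2 in place of 1, and other targets that fell in TC71 0 in place of 2. The cause was not tested. Libraries with the same number did not deviate together (correlations between -0.138 and -0.015). This gave no sign that the numbers pair them, but with 3 libraries per group it cannot exclude pairing. With a replicate block the ATF4 difference between the lines was 0.15 (adjusted p = 0.0688), so that 9 members differed in place of 10, CHAC1 at 0 h was 0.14 (adjusted p = 0.402), and PPP1R15B and EIF4EBP1 in TC71 did not pass (0.0819 and 0.0739). Endoplasmic reticulum genes that rose in TC71 then numbered 3 in place of 5, and other targets that fell in TC71 1 in place of 2. When each library had to hold 10 counts or more, that last count was also 1, and CHAC1 at 0 h (adjusted p = 0.0583) and EIF4EBP1 in TC71 (0.0600) did not pass. Genes near 3 counts, such as GDF15 at 0 h, are limited by depth.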
